A study of Sus scrofa with 67 samples.

Results

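The comparison set whole ovaries of gilts, which are young female pigs before their first litter, on day 3 of the oestrous cycle against whole ovaries on day 0, and covered every gene of the count table. Day 0 was the onset of oestrous behaviour, so the comparison spans the days in which ovulation takes place and the emptied follicles begin to form corpora lutea. The libraries were chosen by the tissue and day on their labels, which gave 2 libraries for day 3 and 3 libraries for day 0, that is 5 of the 66 libraries in the table and 5 of its 22 ovary libraries. Of the 25322 genes listed, 15638 had enough counts in the ovary to be tested. The study sampled ovary, endometrium and oviduct on 7 days of the cycle from Landrace × Yorkshire crossbred gilts of similar age that had already shown cycles of normal length. No agent or genetic change is named for the gilts of either day, and different gilts were used on different days. Messenger RNA of the whole organ was sequenced from both ends of each fragment, so that follicles, corpora lutea, stroma, vessels and blood were measured together, and a lower level of a gene cannot be told apart from fewer cells of the type that expresses it. The methods give 3 gilts for each day, while the table holds 4 ovary libraries on days 12 and 15, so some libraries of those days, which enter the estimate of the spread, may share a gilt.

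The ovarian follicle holds an oocyte among granulosa cells, which carry receptors for follicle-stimulating hormone, inside a shell of theca cells that make androgens. The surge of luteinising hormone at oestrus brings on ovulation, after which granulosa and theca cells luteinise and blood vessels grow in among them. The corpus luteum that results secretes progesterone, for which cholesterol is taken up from lipoproteins or made within the cell through the mevalonate pathway, and is converted to pregnenolone in the mitochondrion.

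The total count was between 10667102 and 11591301 per library, and 3 counts, taken as the lowest detectable level, corresponded to between 0.239 and 0.254 counts per 1000000 (CPM). Libraries are named by their number in the table, as 1, 2 and 3 on day 0 and 1 and 3 on day 3, and values are given in that order throughout. No pair of libraries was identical. The libraries of day 0 stood further apart from each other than those of day 3. The number of genes at least 8-fold apart, on the scale of CPM + 1, was 61 between day 0 libraries 1 and 2, 323 between 1 and 3, 202 between 2 and 3, and 25 between both day 3 libraries. Genes of ovarian cells were detected in each library, but their levels on day 0 were uneven. INHA, the alpha subunit of inhibin made by granulosa cells, stood at 76.2, 3058 and 7107 CPM on day 0 and 2068 and 1806 CPM on day 3. CYP17A1, the theca enzyme that turns pregnenolone and progesterone into androgen precursors, stood at 76.9, 2805 and 2404 CPM on day 0 and 271 and 112 CPM on day 3. Day 0 library 1 was thus low in both genes, and day 0 library 3 was low in markers of immune cells, as given further on. GDF9, a growth factor of the oocyte, was detected in every library at 50.8, 23.3 and 29.8 CPM on day 0 and 25.5 and 21.5 CPM on day 3.

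Among the 15638 genes tested, 28 were called between day 3 and day 0, which is 0.179% (edgeR's quasi-likelihood test, Benjamini-Hochberg adjusted p under 0.05). Of these, 23 rose (0.147%) and 5 fell (0.032%). In each of the 28, every library of day 3 lay beyond every library of day 0. That lack of overlap on its own was common, as it held for 21.9% of all genes tested upwards and 17.7% downwards. At an unadjusted p under 0.05 there were 2742 genes (17.5%), 1402 higher (8.97%) and 1340 lower (8.57%). DESeq2 called 870 genes (5.56%), of which 446 were higher and 424 lower and which included the 28. The number of calls depended on which libraries were fitted. None remained in the fit without day 0 library 1 or in that without day 0 library 2, 4 remained without day 3 library 1, 1 without day 3 library 3, and 14 of the 28 were among the 33 genes called without day 0 library 3. In those fits 1769, 2009, 2386, 859 and 3090 genes in turn had an unadjusted p under 0.05. The fitted changes of all 28 genes kept their sign in the 5 fits, and the log2 fold change of PIM2, for one, lay between 5.52 and 5.82. Of the 28 genes, 19 had a symbol, and 12 that rose and 2 that fell passed the rule for named genes, which asked for 50 counts or more in every library on the day with the higher level.

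The largest rise among the named genes was that of PIM2, a serine/threonine kinase that promotes cell survival. PIM2 stood at 9.36, 14 and 10.7 CPM on day 0 and 544 and 591 CPM on day 3, a log2 fold change of 5.64 ± 1.02 (SE, adjusted p = 0.0338). The day 3 libraries lay far above all of day 0, and leaving out any 1 of the 5 libraries kept the log2 fold change between 5.52 and 5.82, although the gene was called in none of those fits. SCAP, which carries the sterol regulatory element binding proteins from the endoplasmic reticulum to the Golgi when sterols run low, stood at 112, 116 and 177 CPM on day 0 and 1444 and 1817 CPM on day 3. Its log2 fold change was 3.60 ± 0.68 (adjusted p = 0.0392), and between 3.43 and 3.84 with 1 library left out. The libraries of day 0 and those of day 3 each lay close together.

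RUNDC3A, a RUN domain protein that binds the small GTPase RAP2, stood at 6.0, 5.23 and 1.11 CPM on day 0 and 92.6 and 88.5 CPM on day 3 (log2 fold change 4.46 ± 0.70, adjusted p = 0.0185). PNCK, a calmodulin-dependent protein kinase first described in mammary gland in pregnancy, stood at 2.80, 3.90 and 4.22 CPM on day 0 and 59.9 and 90.3 CPM on day 3 (log2 fold change 4.36 ± 0.59, adjusted p = 0.0131). HAO2, a peroxisomal oxidase of 2-hydroxy acids, stood at 4.64, 10.4 and 4.93 CPM on day 0 and 98.7 and 172 CPM on day 3 (log2 fold change 4.35 ± 0.85, adjusted p = 0.045). In all 3 genes every day 0 library was at 10.4 CPM or less and every day 3 library at 59.9 CPM or more.

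IQGAP2, a scaffold of the actin cytoskeleton, stood at 37.8, 117 and 60.8 CPM on day 0 and 417 and 573 CPM on day 3, a log2 fold change of 2.79 ± 0.55 (adjusted p = 0.05), the weakest call among the named genes. SLC25A39, the carrier that brings glutathione into mitochondria, stood at 84, 124 and 109 CPM on day 0 and 588 and 864 CPM on day 3 (log2 fold change 2.78 ± 0.55, adjusted p = 0.0493). CSDC2, an RNA-binding protein with a cold shock domain, stood at 52.9, 46.3 and 55.4 CPM on day 0 and 237 and 403 CPM on day 3 (log2 fold change 2.63 ± 0.45, adjusted p = 0.0224). In these genes the lower day 3 library was number 1 each time. RASSF10, a member of the Ras association domain family, was low on both days at 0.96, 0.914 and 1.03 CPM on day 0 and 7.0 and 5.60 CPM on day 3 (log2 fold change 2.69 ± 0.45, adjusted p = 0.0212).

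AGTPBP1, a carboxypeptidase that trims the glutamate chains of tubulin, stood at 7.60, 9.22 and 11.9 CPM on day 0 and 39.1 and 57.2 CPM on day 3 (log2 fold change 2.33 ± 0.45, adjusted p = 0.045). AGK, a lipid kinase of the mitochondrial inner membrane that also serves in carrier protein import, stood at 28.1, 33.8 and 42.5 CPM on day 0 and 124 and 155 CPM on day 3 (log2 fold change 2.0 ± 0.29, adjusted p = 0.0156). TIMM50, a receptor of the import machinery of the same membrane, stood at 40.4, 37.4 and 52 CPM on day 0 and 112 and 140.5 CPM on day 3 (log2 fold change 1.54 ± 0.27, adjusted p = 0.0224). The rises of AGK and TIMM50 were the smallest among the 12 named genes that rose, and their standard errors were also the smallest.

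SGK3, a serum and glucocorticoid regulated kinase that acts downstream of phosphoinositide 3-kinase, fell from 40.8, 42.4 and 80.7 CPM on day 0 to 15.9 and 14.5 CPM on day 3 (log2 fold change -1.84 ± 0.36, adjusted p = 0.045). PIDD1, an adaptor with a death domain that is induced by p53, fell from 19.4, 20.7 and 17.2 CPM to 10.1 and 8.48 CPM (log2 fold change -1.04 ± 0.20, adjusted p = 0.0392). Day 0 library 3 held the highest SGK3 and the lowest PIDD1 of its day.

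**Figure D1:**
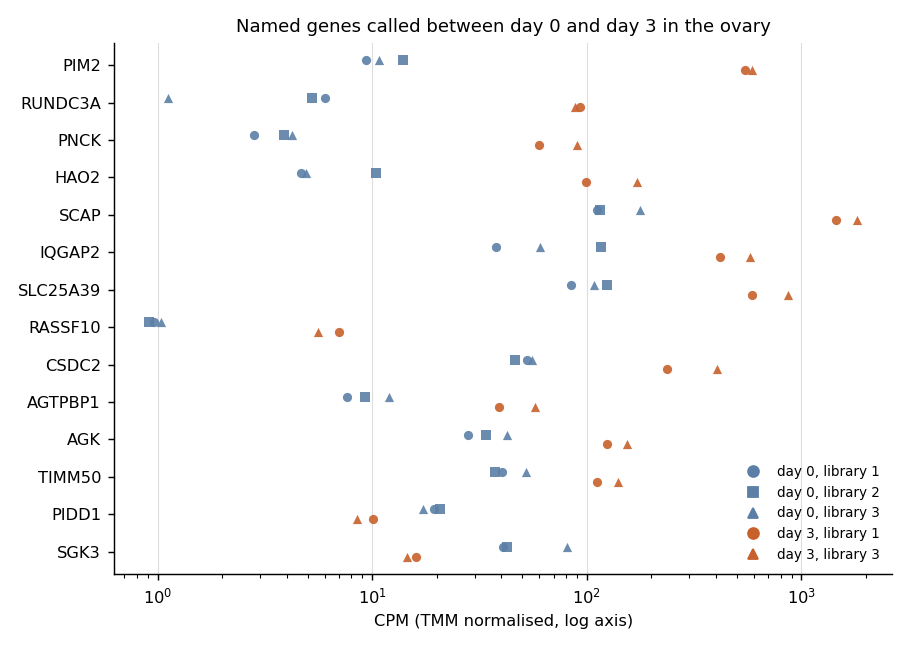
Levels of the 14 named genes in each ovary library, in CPM on a log axis, with 1 row for each gene, blue symbols for day 0, orange symbols for day 3 and the shape giving the library number. In all 14 rows the orange symbols lie wholly to 1 side of the blue ones, to the right in 12 genes and to the left in PIDD1 and SGK3.

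The other called genes fell outside the rule and are named after their values were seen. CASK, a scaffold kinase of cell junctions, stood at 48.7, 53 and 52.4 CPM on day 0 and 121 and 175 CPM on day 3. The linker histone gene H1-3, whose reads may be shared with near copies, stood at 20.2, 22.8 and 15.6 CPM on day 0 and 43.8 and 52.5 CPM on day 3. CPSF2, a subunit of the factor that cleaves messenger RNA before polyadenylation, stood at 18.7, 19.4 and 20.4 CPM on day 0 and 34.1 and 44.8 CPM on day 3. These rose by log2 fold changes of 1.53, 1.30 and 1.01, with adjusted p of 0.0185, 0.0224 and 0.0361. DIO1, a deiodinase that can turn thyroxine into its active form, was at or under the lowest detectable level in all of day 0 and at 4.99 and 1.19 CPM on day 3, at least 12.7-fold higher against 3 counts per library. TLR10, a Toll-like receptor, was at 2.40, 3.16 and 1.35 CPM on day 0 and under the lowest detectable level in both libraries of day 3, at least 9.29-fold lower. Beyond these, 9 called genes had no symbol. ENSSSCG00000003053 was under the lowest detectable level on day 0 and at 52.7 and 38.3 CPM on day 3, at least 188-fold higher, and ENSSSCG00000009153 went from 1.04, 1.74 and 2.78 CPM to 29.5 and 112 CPM. ENSSSCG00000000914 fell from 323, 331 and 399.7 CPM to 109.6 and 96.8 CPM and ENSSSCG00000024047 from 5.60, 8.64 and 8.67 CPM to 1.21 and 1.27 CPM.

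To ask whether the change belonged to the ovary, the change from day 0 to day 3 in the ovary was tested against the same change in the endometrium and in the oviduct, with all libraries of the 3 tissues in 1 fit. That fit takes 1 spread for each gene over the 3 tissues, so its p-values do not measure the spread of the ovary alone. By the methods, the 3 tissues were collected from 3 gilts a day, so libraries of different tissues may share a gilt. The fit took no account of this and treated all libraries as independent. The ovary differed from the endometrium in 523 of 16934 genes (3.09%), upwards in 1.26% and downwards in 1.83%. It differed from the oviduct in 719 genes (4.25%), upwards in 2.28% and downwards in 1.97%. Of the 28 genes called in the ovary, 23 differed from the endometrium and 20 from the oviduct, 20 differed from both, and 5 differed from neither. The 28 were picked by their ovary change, which is 1 side of that test, so these shares are a description. By edgeR, 0 of the 28 were called in the endometrium or in the oviduct, where 2 and 3 of them had an unadjusted p under 0.05. In these tissues 14 genes (0.0827%) and 54 genes (0.319%) were called in all. An unadjusted p under 0.05 was reached by 911 (5.38%) and 1631 genes (9.63%) there.

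PIM2 changed by -0.17 ± 0.54 on the log2 scale in the endometrium and by -0.31 ± 0.54 in the oviduct. The ovary exceeded them by 5.78 ± 0.84 (adjusted p = 0.0002) and 5.92 ± 0.84 (adjusted p = 0.00011). These standard errors rest on the spread shared by the 3 tissues. They are smaller than the 1.02 of the PIM2 change in the fit of the ovary alone. SCAP was at 129.8 to 166 CPM in the 6 endometrium libraries and at 103 to 129 CPM in the 6 oviduct libraries of both days, on a scale set over all 66 libraries, on which the ovary libraries of day 3 held 1624 and 2076 CPM. Its ovary change exceeded that of the endometrium by 3.45 ± 0.56 (adjusted p = 0.00078) and that of the oviduct by 3.73 ± 0.57 (adjusted p = 0.00016). RASSF10 and PIDD1 did not pass this test against either tissue (adjusted p = 0.254 and 0.166 for RASSF10). PIDD1 stood lower on day 3 by -0.60 ± 0.21 in the endometrium and -0.66 ± 0.21 in the oviduct on the log2 scale, and its ovary change was not told apart from these (adjusted p = 0.477 and 0.48). SGK3 differed from the endometrium (adjusted p = 0.016) and did not pass against the oviduct (adjusted p = 0.131).

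**Figure D2:**
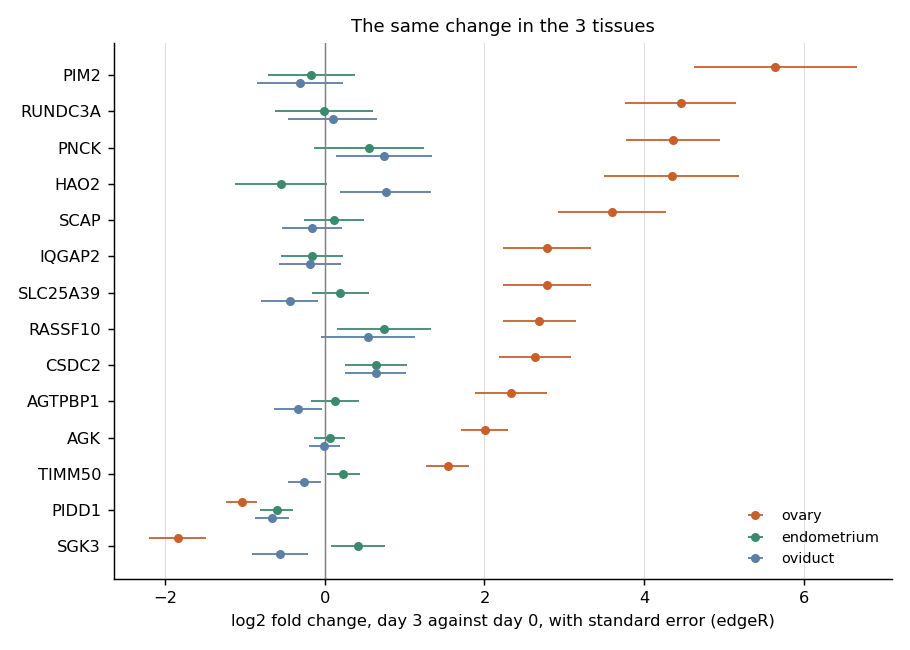
Log2 fold change of day 3 against day 0 for the 14 named genes in the ovary, endometrium and oviduct, with bars for the standard error of the edgeR fit. From PIM2 to TIMM50 the orange ovary points lie to the right of the other tissues, while for PIDD1 all 3 points lie below 0.

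Levels on the later days are given for the 5 named genes that rose most, and for SGK3, which fell more than PIDD1. PIM2 was at 405, 319.7 and 450.1 CPM in the libraries of day 6, between 333 and 609 CPM on day 9, between 21.0 and 542 CPM on day 12, and between 9.47 and 23.4 CPM on day 18. SCAP followed the same course, with 1766, 1347 and 1113 CPM on day 6, 996 to 1607 CPM on day 9 and 113 to 180.1 CPM on day 18. HAO2 was at 101, 71.8 and 146 CPM on day 6, between 90.6 and 153 CPM on day 9 and between 9.54 and 15.8 CPM on day 18. PNCK was at 80.7, 75.3 and 74.9 CPM on day 6, between 29.1 and 40.7 CPM on day 9 and between 1.83 and 6.82 CPM on day 18. On day 18 each of these 4 genes had at least 1 library within its day 0 range. RUNDC3A was highest on day 3, as its libraries of day 6 held 41.7, 17 and 20.9 CPM and those of days 9, 12, 15 and 18 held 65.3 CPM at most. SGK3 stayed low, between 10.5 and 31.8 CPM from day 6 to day 18. Between day 3 and day 6, 0 of 15638 genes were called by edgeR, with 967 genes (6.18%) at an unadjusted p under 0.05. By contrast, 59 genes were called when these groups alone were fitted and 73 by DESeq2. The day 6 comparison uses the same day 3 libraries.

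For the biology of ovulation and luteinisation, 28 gene lists were described, 17 by role and 11 by cell type. Their 404 symbols included 288 in the table and 273 tested. Of the 273, 0 were called by edgeR and 25 by DESeq2, while 62 reached an unadjusted p under 0.05. Over all genes tested these shares were 0.179%, 5.56% and 17.5%. Role lists are therefore given mainly by their members' values, by how many members had libraries that did not overlap, and by their median log2 fold change. The lack of overlap is to be read against 21.9% and 17.7% of all genes. The median is to be read against -0.06 over all genes tested, of which 7230 were above 0 and 8391 below. Marker lists are given mainly by their summed CPM in each library, to which abundant genes add most.

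Cholesterol synthesis had the highest median of the 17 role lists. All 19 members tested had higher fitted levels on day 3, 18 of them with every library of day 3 above every library of day 0, and the median log2 fold change was 2.43. At an unadjusted p under 0.05 there were 14 of 19, beside 8.97% of all genes upwards. The smallest adjusted p was 0.105 and none passed. DESeq2 called 7, beside 2.85% of all genes. The median lay between 2.01 and 3.18 with 1 library left out, and the lower end was reached without day 0 library 1, which held the lowest level of each gene of the list named below.

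The early steps lead from acetyl-CoA to farnesyl pyrophosphate. HMGCS1, which makes the precursor HMG-CoA, stood at 82.3, 218 and 484 CPM on day 0 and 1831 and 3547 CPM on day 3 (log2 fold change 3.36 ± 1.26, adjusted p = 0.189 by edgeR and 0.0537 by DESeq2). Day 3 library 3 held the most and day 0 library 1 the least of it. ACAT2, which joins acetyl-CoA units, stood at 9.60, 14.1 and 59.3 CPM on day 0 and 222 and 262 CPM on day 3. MVK, mevalonate kinase, stood at 11.5, 22.5 and 42.6 CPM on day 0 and 107 and 203 CPM on day 3. Neither gene overlapped between the days. IDI1, the isomerase of the isoprenoid units, stood at 0.72, 0.914 and 3.58 CPM on day 0 and 22.6 and 27.1 CPM on day 3, the largest log2 fold change of the list at 3.83 ± 1.12 (adjusted p = 0.114). FDPS, which makes farnesyl pyrophosphate, stood at 50.3, 98.8 and 330.5 CPM on day 0 and 1005 and 1219 CPM on day 3.

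The later steps lead from squalene to cholesterol, and on day 0 each of them was lowest in library 1 and highest in library 3. FDFT1, squalene synthase, stood at 69.1, 78.8 and 163 CPM on day 0 and 454 and 518 CPM on day 3. SQLE, the epoxidase that follows it, stood at 13.5, 53.2 and 132 CPM on day 0 and 263 and 341 CPM on day 3. LSS, which closes the sterol rings, stood at 41.8, 84.1 and 227 CPM on day 0 and 401 and 463 CPM on day 3. In each of these enzymes day 0 library 3 came nearest to day 3. Among the enzymes that shape the sterol, CYP51A1 stood at 15.6, 42.2 and 84.6 CPM on day 0 and 214 and 297 CPM on day 3. TM7SF2 stood at 12.7, 39.1 and 85.6 CPM on day 0 and 429.6 and 687 CPM on day 3. MSMO1 stood at 36.7, 138 and 276 CPM on day 0 and 1096 and 1491 CPM on day 3. These are a demethylase, a reductase and an oxidase of sterol intermediates. NSDHL, a sterol dehydrogenase, stood at 31.8, 32.1 and 65.2 CPM on day 0 and 167 and 179 CPM on day 3 and had the smallest adjusted p of the list, 0.105, with a log2 fold change of 2.01 ± 0.56. DHCR7, a reductase that acts late in the pathway, stood at 14.3, 49.3 and 146 CPM on day 0 and 203 and 197 CPM on day 3. The days lay closer together in DHCR7. SREBF2, the transcription factor that SCAP escorts and that drives the genes of the pathway, stood at 56.4, 97.6 and 218 CPM on day 0 and 335 and 419 CPM on day 3 (log2 fold change 1.61 ± 0.48, adjusted p = 0.125).

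Against the oviduct, the ovary's change was greater in 10 of the 19 genes by the test of the difference, beside 2.28% of all genes, and against the endometrium in 0, beside 1.26%. An unadjusted p under 0.05 was reached by 18 and 11 of them in turn, beside 21% and 17.3% of all genes in either direction. HMGCS1 exceeded the oviduct's change by 4.66 ± 1.20 on the log2 scale (adjusted p = 0.0202) and the endometrium's by 2.72 ± 1.18 (adjusted p = 0.204). The list's median change was -0.64 in the oviduct and 0.51 in the endometrium. HMGCS1 was still between 1455 and 3340.2 CPM on day 6 and between 2031 and 2751 CPM on day 9, then between 69.4 and 713 CPM on day 18.

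**Figure D3:**
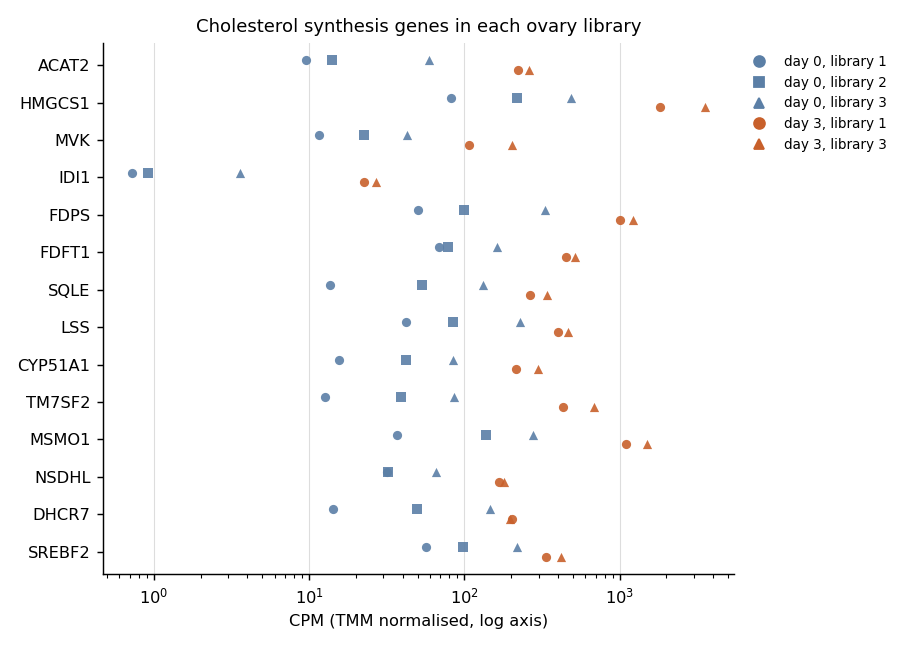
Levels of the 14 cholesterol synthesis genes described above, in CPM on a log axis, with 1 row for each gene, blue symbols for day 0, orange for day 3 and the shape giving the library number. The orange symbols lie to the right of the blue ones in all 14 rows, and the blue circle of day 0 library 1 is the leftmost symbol in each, covered by the square of library 2 in NSDHL.

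Genes of luteal steroid production had the next highest median of the role lists. Of 12 members tested, 9 had every library of day 3 above every library of day 0 and the median log2 fold change was 1.48. By edgeR 0 were called, and by DESeq2 1, beside 2.85% of all genes upwards. An unadjusted p under 0.05 was found for 3 upwards and 1 downwards, beside 8.97% and 8.57% of all genes. FDXR, the reductase that feeds electrons to the side chain cleavage enzyme, stood at 35.8, 75.7 and 60.9 CPM on day 0 and 521 and 657 CPM on day 3 (log2 fold change 3.36 ± 0.86, adjusted p = 0.0877 by edgeR and 0.00524 by DESeq2). Its ovary change exceeded those of the endometrium and the oviduct (adjusted p = 0.0218 and 0.012). CYP11A1, the side chain cleavage enzyme that makes pregnenolone, stood at 278, 1846 and 2223 CPM on day 0 and 2521 and 6254 CPM on day 3, and day 0 libraries 2 and 3 were already near day 3 library 1. SCARB1, the receptor that takes cholesterol from high-density lipoprotein, stood at 296, 1050.3 and 2219 CPM on day 0 and 4112 and 6318 CPM on day 3. Day 0 library 1 was the lowest for these 3 genes. Lipase LIPE, which frees cholesterol from its esters, stood at 7.44, 8.39 and 15.3 CPM on day 0 and 24.9 and 29.3 CPM on day 3. The lysosomal cholesterol exporter NPC1 stood at 106, 144 and 153 CPM on day 0 and 294 and 331 CPM on day 3. SOAT1, which esterifies cholesterol, overlapped between the days, at 87, 289.7 and 95.6 CPM on day 0 and 84.8 and 109.8 CPM on day 3. NPC2, the partner of NPC1, overlapped too, at 871, 701 and 147 CPM on day 0 and 338 and 365 CPM on day 3. PGRMC1, a membrane component that binds progesterone, stood at 195, 266 and 549 CPM on day 0 and 724 and 1706 CPM on day 3 (adjusted p = 0.203). INSIG1, which holds SCAP back when sterols are plentiful, stood at 112, 111 and 128 CPM on day 0 and 328 and 454 CPM on day 3. Both were above day 0 in each day 3 library. The prolactin receptor PRLR was near the lowest detectable level throughout, at 0.16, 0.581 and 0.239 CPM on day 0 and 0 and 0 CPM on day 3.

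Among receptors and hormones of the corpus luteum, LHCGR, the receptor for luteinising hormone, stood at 2.48, 19.3 and 7.0 CPM on day 0 and 58.6 and 225 CPM on day 3 (log2 fold change 3.89 ± 0.96, adjusted p = 0.076 by edgeR and 0.00241 by DESeq2). Both libraries of day 3 lay above all of day 0, though they were far apart. The progesterone receptor PGR, which the surge of luteinising hormone induces in granulosa cells, stood at 3.84, 153 and 144 CPM on day 0 and 4.35 and 11.3 CPM on day 3. Day 0 libraries 2 and 3 were far above the rest, and day 0 library 1 lay below day 3, so the days overlapped (adjusted p = 0.135 by edgeR and 0.0087 by DESeq2). IGF1, insulin-like growth factor 1, stood at 26.3, 17 and 16.2 CPM on day 0 and 6.92 and 6.61 CPM on day 3 (log2 fold change -1.55 ± 0.35, adjusted p = 0.0677 by edgeR and 0.00149 by DESeq2), lower in both day 3 libraries than in any of day 0. The oestrogen receptor gene ESR1 overlapped, at 29.1, 30.1 and 50.4 CPM on day 0 and 43.8 and 40.2 CPM on day 3. The oxytocin receptor OXTR overlapped as well, at 8.08, 17.9 and 5.81 CPM on day 0 and 14.3 and 7.55 CPM on day 3. The list's median was 0.07 over 9 genes, 1 without overlap upwards and 2 downwards.

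Granulosa and follicle genes did not move as 1 group, with a median of -0.49 over 11 genes, 2 without overlap upwards and 0 downwards. That median was 0.30 without day 0 library 3. FST, follistatin, which binds activin, came closest to the threshold, at 21.9, 12.5 and 35.1 CPM on day 0 and 151 and 186 CPM on day 3 (log2 fold change 2.86 ± 0.63, adjusted p = 0.0572 by edgeR and 0.00149 by DESeq2). NR5A2, a nuclear receptor needed for ovulation and luteal function, stood at 11, 169.7 and 259 CPM on day 0 and 1107 and 1467 CPM on day 3 (adjusted p = 0.196). The receptor for follicle-stimulating hormone, FSHR, overlapped at 16.5, 1.08 and 11.6 CPM on day 0 and 25 and 5.09 CPM on day 3. The gap junction gene GJA1 overlapped at 443, 757 and 1636 CPM on day 0 and 524 and 821 CPM on day 3. SERPINE2, a protease inhibitor of granulosa cells, stood at 272, 2329.5 and 4429.5 CPM on day 0 and 974 and 1364 CPM on day 3, spanning more within day 0 than between the days. Theca genes had a median of 0.43 over 9, or -0.54 without day 3 library 1, with 6 fitted higher, 2 without overlap upwards and 0 downwards. Those 2 were LHCGR, given above, and NR5A1, a nuclear receptor that drives steroid enzymes, at 17.2, 26.3 and 26.9 CPM on day 0 and 42.4 and 44.5 CPM on day 3. INSL3, a peptide hormone of theca cells, stood at 31.3, 283 and 244 CPM on day 0 and 119 and 17 CPM on day 3. CYP17A1 had a log2 fold change of -3.20 ± 1.89 (adjusted p = 0.394), with day 0 library 1 below both libraries of day 3. CYP19A1, STAR and HSD3B1 were not analysed here, since no gene in the table carried these symbols.

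The ovulation list held genes of opposite direction, 2 of 16 without overlap upwards and 3 downwards, with a median of -0.63. PTGES, which makes prostaglandin E2, stood at 21.2, 93.6 and 70.7 CPM on day 0 and 472 and 508 CPM on day 3 (log2 fold change 2.99 ± 1.03, adjusted p = 0.162). ADAMTS9, a protease that cleaves versican, stood at 18.3, 38.2 and 72.7 CPM on day 0 and 194 and 231 CPM on day 3 (log2 fold change 2.30 ± 0.60, adjusted p = 0.0895). Both were above all of day 0 in each day 3 library. AREG, an epidermal growth factor ligand that relays the luteinising hormone signal, stood at 0.4, 156 and 421 CPM on day 0 and 44 and 117 CPM on day 3 with its lowest value in day 0 library 1. PTGS2, the prostaglandin synthase of ovulation, was low on both days, at 2.96, 3.57 and 3.42 CPM on day 0 and 1.93 and 2.80 CPM on day 3. HAS2, the hyaluronan synthase of the cumulus, stood at 8.16, 17 and 5.01 CPM on day 0 and 1.53 and 2.54 CPM on day 3. Both were lower in each day 3 library than in any of day 0. The protease gene CTSL stood at 95.2, 702 and 1800.2 CPM on day 0 and 167 and 83.4 CPM on day 3. The transcription factor CEBPA stood at 53.6, 42.2 and 5.01 CPM on day 0 and 8.86 and 5.17 CPM on day 3. CTSL and CEBPA overlapped between the days, with their low day 0 values in different libraries.

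Fitted levels of cell cycle genes were higher on day 3 in 19 of 20, with 15 free of overlap upwards and a median of 0.99. Yet 0 were called by DESeq2 and 0 reached an unadjusted p under 0.05, beside 2.85% and 8.97% of all genes upwards. With only both groups fitted, 10 of the 20 reached that p, as did 2826 genes in all, and 0 of the 20 were called. TOP2A, a topoisomerase of dividing cells, stood at 49.1, 24.4 and 53.5 CPM on day 0 and 118 and 90.7 CPM on day 3. CENPF, a kinetochore protein, stood at 12.2, 7.06 and 10.4 CPM on day 0 and 30.6 and 29.7 CPM on day 3. The cyclin CCNB1 stood at 17.1, 7.97 and 18.8 CPM on day 0 and 32.9 and 32.5 CPM on day 3. Day 0 library 2 was the lowest for these. CDC20 went the other way, at 5.68, 5.48 and 5.17 CPM on day 0 and 4.27 and 4.32 CPM on day 3. The list's median was -2.02 in the oviduct. By the test of the difference, 0 of the 20 genes were called against the oviduct and 0 against the endometrium. At an unadjusted p under 0.05 there were 13 and 0 in turn, beside 21% and 17.3% of all genes.

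Of 19 angiogenesis genes, 3 were without overlap upwards and 2 downwards, with a median of -0.39. VEGFA, the main growth factor of blood vessels, stood at 22.6, 35.4 and 42.7 CPM on day 0 and 133 and 147 CPM on day 3 (log2 fold change 2.06 ± 0.67, adjusted p = 0.142). Its receptor FLT1 overlapped at 24.1, 41.6 and 59.3 CPM on day 0 and 43.8 and 63.9 CPM on day 3. Its other receptor KDR overlapped at 79.5, 116 and 135 CPM on day 0 and 87.3 and 176 CPM on day 3. The ligand was thus higher in each day 3 library and the receptors were not. TEK, the angiopoietin receptor, stood at 46.7, 29.3 and 19.2 CPM on day 0 and 16.2 and 16.2 CPM on day 3. ANGPT1, its ligand, stood at 0.72, 2.24 and 1.83 CPM on day 0 and 2.74 and 6.87 CPM on day 3. Endothelial markers as a group did not separate the days, as the 8 measured summed to 561, 722 and 656 CPM on day 0 and 458 and 859 CPM on day 3.

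The matrix list had a median of -0.32 over 28 genes, 2 without overlap upwards and 7 downwards. TIMP1, an inhibitor of matrix metalloproteinases, stood at 373, 2094 and 2731 CPM on day 0 and 6691 and 8888 CPM on day 3. VCAN, the proteoglycan versican, stood at 201, 355 and 578 CPM on day 0 and 750.2 and 805 CPM on day 3. Both were above day 0 in each day 3 library. The ovary's change in VCAN exceeded that of the endometrium (adjusted p = 0.0215) and of the oviduct (adjusted p = 0.0343). FN1, fibronectin, stood at 4335, 14867 and 429.5 CPM on day 0 and 536 and 392 CPM on day 3 (log2 fold change -3.82 ± 1.29, adjusted p = 0.154 by edgeR and 0.01 by DESeq2), and day 0 library 3 lay among the values of day 3. For FN1 too the ovary differed from both tissues by the test of the difference, downwards (adjusted p = 0.0262 and 0.0176). That test takes 1 spread for each gene over the 3 tissues. The p-values it gave for VCAN and FN1 thus do not measure the spread of the ovary alone. The gelatinase MMP2 stood at 3731, 2029 and 522 CPM on day 0 and 995 and 263 CPM on day 3. Its activator MMP14 stood at 1441, 1034 and 243 CPM on day 0 and 407 and 156 CPM on day 3. Again day 0 library 3 lay within the range of day 3. MMP13, a collagenase, stood at 1.28, 113 and 0.557 CPM on day 0 and 0.0805 and 0.17 CPM on day 3. Its high mean on day 0 came from library 2, while the other libraries of day 0 were low but also above day 3. Both values of day 3 were under the lowest detectable level. COL3A1, a fibrillar collagen, was level at 8264, 7144 and 7577 CPM on day 0 and 6514 and 9128 CPM on day 3.

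In the activin, BMP and TGF-beta list, 6 of 18 genes were without overlap downwards and 2 upwards, with a median of -0.70. The growth factor TGFB1 stood at 213, 169 and 56.1 CPM on day 0 and 45.7 and 37.1 CPM on day 3. Its type II receptor TGFBR2 stood at 70.3, 74.8 and 60.7 CPM on day 0 and 33 and 42.3 CPM on day 3. The activin and BMP receptor ACVR1 stood at 57.1, 50.1 and 50.7 CPM on day 0 and 29.6 and 25.9 CPM on day 3 (adjusted p = 0.224). Ligand and receptors were lower in each day 3 library than in any of day 0. The ligand BMP6 stood at 380.2, 353 and 485 CPM on day 0 and 280.4 and 192 CPM on day 3. AMHR2, the receptor for anti-Müllerian hormone, stood at 12.5, 12 and 14.1 CPM on day 0 and 37 and 25.9 CPM on day 3, above day 0 in each day 3 library. The IGF list had a median of -0.85 over 9 genes, 1 without overlap upwards and 3 downwards. PAPPA, a protease that frees IGF from its binding proteins, stood at 1.84, 24.7 and 53.5 CPM on day 0 and 89.9 and 116 CPM on day 3. The binding protein IGFBP7 stood at 318, 349 and 350.3 CPM on day 0 and 201 and 174 CPM on day 3. The former was higher and the latter lower in each day 3 library than in any of day 0. IGF1R was listed at 0 in all 5 libraries. So was TPI1, an enzyme of glycolysis that every cell uses, and neither 0 is read as absence of the transcript.

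Glycolysis genes had a median of 0.37 over 15, with 5 without overlap upwards and 3 downwards. ALDOC, an aldolase, stood at 8.40, 19.7 and 21.6 CPM on day 0 and 89.4 and 105 CPM on day 3 (log2 fold change 2.55 ± 0.58, adjusted p = 0.0625 by edgeR and 0.00283 by DESeq2). HK1, which carries out the opening step, stood at 212, 324 and 203 CPM on day 0 and 423 and 552 CPM on day 3. GPI, the next enzyme, stood at 363, 471 and 398 CPM on day 0 and 690.5 and 906 CPM on day 3. Both were above day 0 in each day 3 library. The lactate dehydrogenase gene LDHA overlapped, at 255, 544 and 242 CPM on day 0 and 385 and 526 CPM on day 3. PDK1, a kinase that restrains pyruvate dehydrogenase, was lower in each day 3 library, at 14.6, 15.3 and 11.1 CPM on day 0 and 8.45 and 6.44 CPM on day 3 (adjusted p = 0.16 by edgeR and 0.0436 by DESeq2). The immediate early genes, which respond within minutes to stress and handling, had a median of 0.10 over 13, with 0 without overlap upwards and 4 downwards. The median ran from -1.17 without day 3 library 3 to 0.87 without day 3 library 1. KLF4, a transcription factor of the list, was lower in each day 3 library, at 18.2, 40.4 and 19.6 CPM on day 0 and 11.5 and 12 CPM on day 3 (adjusted p = 0.263). FOS stood at 46.2, 333 and 175 CPM on day 0 and 59.3 and 396 CPM on day 3. EGR1 stood at 104, 409 and 193 CPM on day 0 and 88 and 697 CPM on day 3. The highest value of FOS and of EGR1 was in day 3 library 3. Interferon response genes had a median of -0.58 over 11, with 0 without overlap upwards and 3 downwards, and MX1 stood at 42.3, 39.1 and 52.7 CPM on day 0 and 35.6 and 22.1 CPM on day 3.

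The inflammation list had a median of -0.96 over 13 genes, 2 without overlap upwards and 1 downwards. IL1R2, a decoy receptor for interleukin 1, was above day 0 in each day 3 library, at 0.24, 0.332 and 0.636 CPM on day 0 and 2.66 and 3.99 CPM on day 3 (log2 fold change 3.01 ± 1.40, adjusted p = 0.275). TLR2, a Toll-like receptor of myeloid cells, stood at 74.2, 81.8 and 4.53 CPM on day 0 and 7.41 and 3.05 CPM on day 3. TLR4, another of the family, stood at 54.1, 43.6 and 4.30 CPM on day 0 and 10.2 and 2.71 CPM on day 3. Day 0 libraries 1 and 2 were high in both and day 0 library 3 was not (adjusted p = 0.187 and 0.284). CCL2, a chemokine that draws monocytes, stood at 33.3, 95.7 and 30.1 CPM on day 0 and 25.3 and 22.6 CPM on day 3. The study had picked 11 genes of its ovary network for quantitative PCR on these samples, which makes their direction no independent evidence, and 9 were tested here. They include TLR2, TLR4, TLR9, CYP7A1 and CYP17A1, with log2 fold changes of -3.35, -2.39, -3.19, -2.60 and -3.20, and the cholesterol genes ACAT2, HMGCS1 and MVK given above. Of the 9, 0 were called by edgeR and 4 by DESeq2, while 7 reached an unadjusted p under 0.05. For DESeq2 and the unadjusted p, the shares over all genes tested were 5.56% and 17.5%.

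Of 5 reference genes tested, YWHAZ overlapped at 239, 346 and 373 CPM on day 0 and 267 and 360.0 CPM on day 3. UBB overlapped at 978, 1195 and 1243 CPM on day 0 and 987 and 1105 CPM on day 3. ACTB was lower in each day 3 library, at 3483, 5357 and 2834 CPM on day 0 and 2448 and 2471 CPM on day 3. GAPDH was higher in each, at 341, 533 and 477 CPM on day 0 and 637 and 817 CPM on day 3. SDHA, a subunit of succinate dehydrogenase, stood at 82.8, 99.2 and 119 CPM on day 0 and 175 and 262 CPM on day 3. In SDHA both libraries of day 3 exceeded all of day 0 (log2 fold change 1.12 ± 0.35, adjusted p = 0.134).

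**Figure D4:**
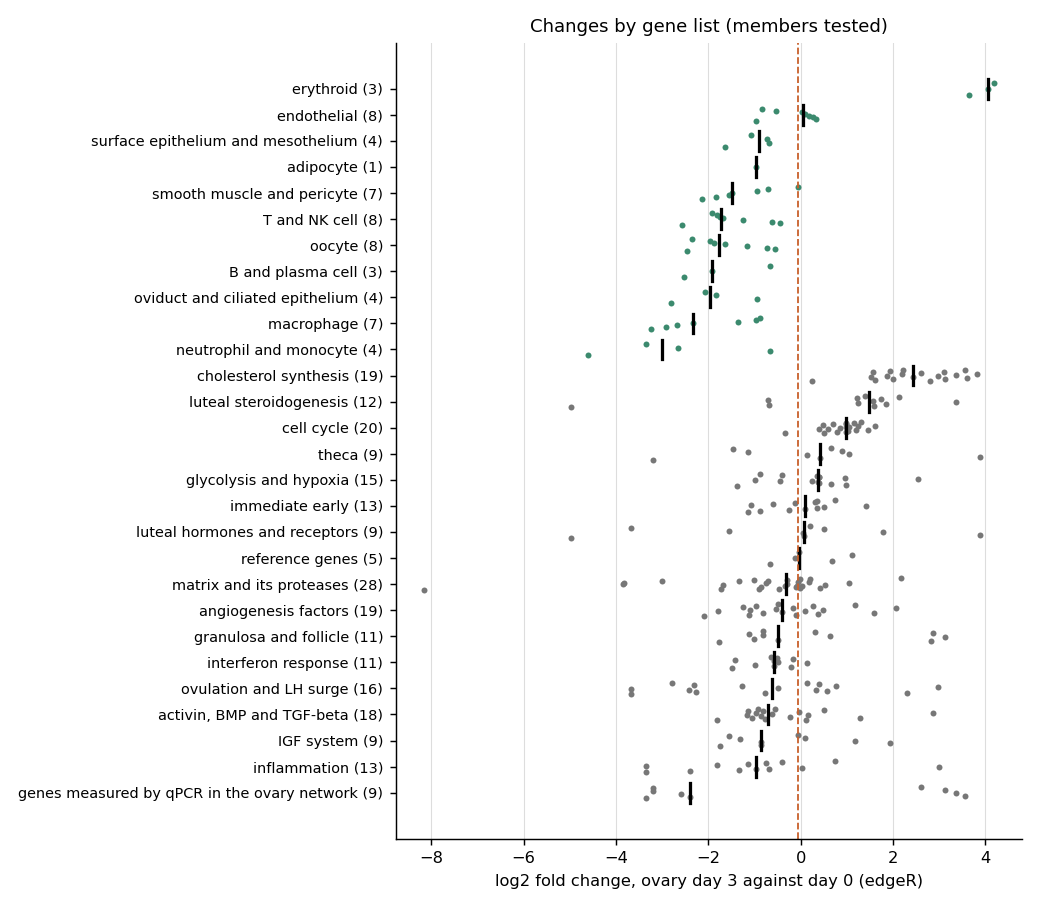
Log2 fold change of each tested member of the 28 lists, with green points for the 11 cell type marker lists, grey points for the 17 role lists, black bars for list medians, the number of members tested in brackets and a dashed line at the median of all genes tested. Cholesterol synthesis is the role list furthest to the right, at a median of 2.43. The medians of all marker lists except the erythroid and endothelial ones lie to the left of the dashed line, those of immune cells among them.

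Marker lists of other cell types were set beside these results. The 7 macrophage markers summed to 889.8, 643 and 118 CPM on day 0 and 201 and 65.8 CPM on day 3, with a median log2 fold change of -2.33. CD68, a lysosomal marker of macrophages, stood at 223, 149.7 and 8.03 CPM on day 0 and 34.6 and 5.09 CPM on day 3. The 4 neutrophil and monocyte markers summed to 317, 209 and 31.1 CPM on day 0 and 53 and 41.6 CPM on day 3. The 8 T and NK cell markers summed to 228, 167 and 19.6 CPM on day 0 and 55.6 and 12.5 CPM on day 3. The immune level on day 0 was thus carried by libraries 1 and 2, and library 3 was in the range of day 3 or below it. The B and plasma cell markers summed to 9.28, 6.56 and 4.30 CPM on day 0 and 2.82 and 2.12 CPM on day 3, lower in both day 3 libraries, with CD79B near the lowest detectable level. TLR2, TLR4, TLR9, FN1, MMP2 and MMP14 had their high values in the same libraries as these markers, and the part of immune cells in those values was not tested. TLR10, which was called, was at 2.40, 3.16 and 1.35 CPM on day 0 and thus also above day 3 in day 0 library 3.

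Erythroid markers had higher sums on day 3, as the 4 in the table summed to 13.8, 6.98 and 7.16 CPM on day 0 and 36 and 302 CPM on day 3. The 3 tested were all without overlap upwards, beside 21.9% of all genes. Their median log2 fold change was 4.06, and 1.92 without day 3 library 3. By edgeR 0 were called, with adjusted p from 0.114 to 0.202, and by DESeq2 2, beside 2.85% of all genes upwards. The haemoglobin gene HBB stood at 13.1, 6.40 and 6.84 CPM on day 0 and 33.2 and 288 CPM on day 3. The haem synthesis enzyme ALAS2 stood at 0.48, 0.498 and 0.318 CPM on day 0 and 2.50 and 12.3 CPM on day 3. Day 3 library 3 held the most of both. SLC4A1 was listed at 0 in all 5 libraries. The 7 smooth muscle and pericyte markers summed to 1472, 3995 and 4262 CPM on day 0 and 1754 and 1115 CPM on day 3. The 10 oocyte markers summed to 168, 38.4 and 99.7 CPM on day 0 and 52.3 and 28.6 CPM on day 3, with NOBOX at 0 in all 5. The 4 surface epithelium and mesothelium markers summed to 74.2, 44.7 and 107 CPM on day 0 and 51.1 and 34.3 CPM on day 3. The 2 adipocyte markers summed to 1.74 CPM at most. The part of these cell types in the called genes was not tested.

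OVGP1, the oviduct's own secreted glycoprotein, was present in the ovary libraries at 469, 1847 and 667 CPM on day 0 and 2.98 and 467 CPM on day 3. FOXJ1, which marks ciliated cells, stood at 3.28, 13.9 and 19.2 CPM on day 0 and 0.242 and 3.22 CPM on day 3. Their list summed to 479, 1869.9 and 698 CPM on day 0 and 7.33 and 475 CPM on day 3. On the scale set over all libraries, OVGP1 was between 50694 and 188058 CPM in the oviduct on day 0, between 543 and 2123 CPM in the ovary on day 0, and at 3.35 and 534 CPM in the ovary on day 3, while FOXJ1 was between 1156 and 1519 CPM in the oviduct on day 0. OVGP1 was thus far lower in every ovary library than in any oviduct library of day 0, or of day 3, where the lowest held 14812 CPM. In the endometrium it was between 22.6 and 102 CPM on day 0 and between 1.3 and 7.1 CPM on day 3. Every ovary library of day 0 was above these endometrium values. The part of OVGP1 in the comparison of the days was not tested.

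**Figure D5:**
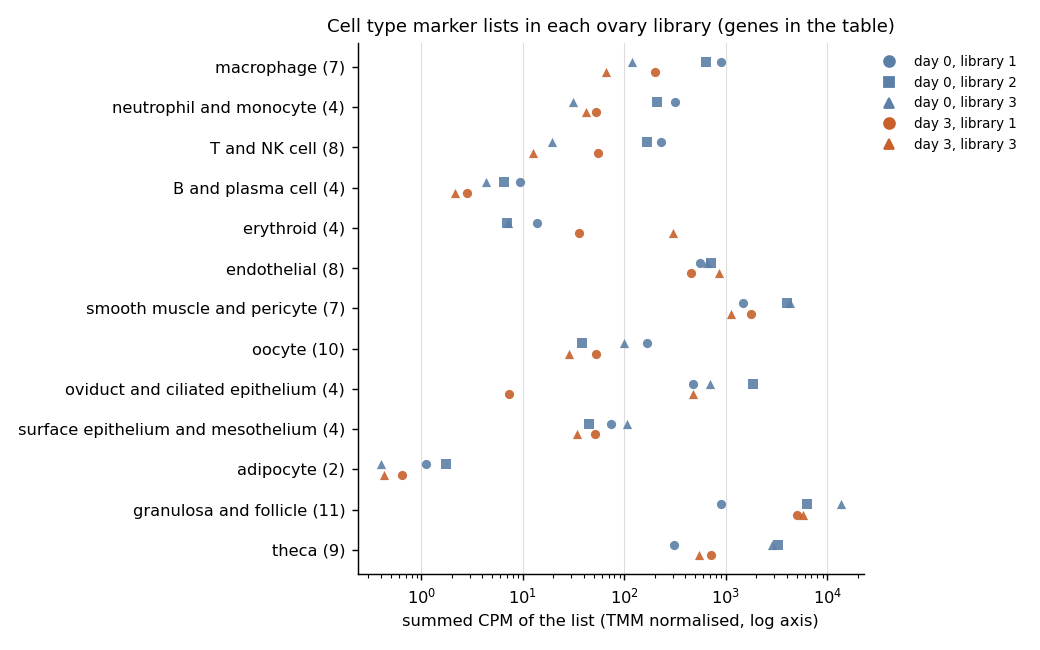
Summed CPM of the marker lists and of the granulosa and theca lists in each ovary library, on a log axis, with blue symbols for day 0, orange for day 3, the shape giving the library number and the number of genes in the table in brackets. The blue triangle of day 0 library 3 lies near the orange symbols for macrophages, neutrophils and T cells, and the blue circle of day 0 library 1 lies furthest to the left for granulosa and theca genes.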

How the data were processed

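Reads were trimmed at their starts by the authors, mapped with tophat2 to the Sscrofa 10.2 genome and its Ensembl annotation, and deposited as whole-number counts per gene and library, not normalized or pooled. The submitters' notes name FastQC, featureCounts, Cufflinks, Cuffdiff and edgeR. The labels name a stranded kit and the paper's methods a TruSeq RNA kit, and whether counting used strand is not given in the sources used here, so overlapping genes may share reads. Symbols were paired by Ensembl identifier, for 11804 of 25322 genes. Columns name a tissue and day, and their numbers differ from those of the sample titles.

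Counts of all 22 ovary libraries were fitted with day as a factor in edgeR 4.0.16 under R 4.3.3 (TMM, filterByExpr, glmQLFit with robust estimation, glmQLFTest), with Benjamini-Hochberg adjustment over all genes tested and calls at an adjusted p under 0.05. The other ovary days lent the spread, since 2 against 3 libraries hold little. Differences between tissues were tested in 1 fit of all 66 libraries, with 1 spread per gene over the 3 tissues and no term for gilts that tissues may share. CPM uses TMM library sizes, and each standard error is the size of the log2 fold change divided by the root of its F statistic. DESeq2 1.42.0 was an alternative. The steps were also run on simulated counts with known changes, drawn separately for each gene. Such counts lack the differences that many genes share between the libraries of day 0, so that run served to check the code only. Named genes were the 12 largest rises and falls with a symbol that passed the test without overlap and with 50 counts or more in every library on the day with the higher level, plus list members. The comparison, the lists and this rule were chosen with earlier results of these data known. Nothing in the labels ties libraries to gilts, so p-values measure the spread between libraries, which may be partly technical. The floor of 3 counts per library covers counting error only, as reads carry no molecular identifiers. Values of some list members are not reported here, and counts and medians over a list include them.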

Additional observations from a re-analysis of the deposited data

Results flagged for a closer look

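The change from day 0 to day 3 in the ovary differed from that in another tissue, by a test of the difference itself (edgeR's quasi-likelihood test, adjusted p under 0.05), in 523 genes for the endometrium and in 719 for the oviduct. Among the named genes, the ovary's log2 change exceeded the endometrium's by 5.78 in PIM2, 4.44 in RUNDC3A, 3.79 in PNCK, 4.87 in HAO2, 3.45 in SCAP, 2.92 in IQGAP2, 2.56 in SLC25A39, 1.96 in CSDC2, 2.17 in AGTPBP1, 1.91 in AGK and 1.28 in TIMM50. For SGK3 the difference was -2.29. Against the oviduct the same genes without SGK3 differed, by 5.92 in PIM2, 4.33 in RUNDC3A, 3.60 in PNCK, 3.56 in HAO2, 3.73 in SCAP, 2.95 in IQGAP2, 3.19 in SLC25A39, 1.97 in CSDC2, 2.64 in AGTPBP1, 1.98 in AGK and 1.77 in TIMM50. These genes were picked by their change in the ovary. The test takes 1 spread for each gene over the 3 tissues, so its p-values do not measure the spread of the ovary alone. No group compared here had 4 or more libraries, so single libraries were not tested as outliers.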

How the results depend on the processing

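For day 3 against day 0 the 28 calls became 21 with only both groups fitted (6 of the 28 among them), 22 with DESeq2's size factors (22), 19 without the filter on low counts (19), 30 with the library number as a replicate block (22) and 870 with DESeq2 (28). Leaving out 1 library gave 0 to 33 calls. These were 0 without day 0 library 1, 0 without day 0 library 2, 33 without day 0 library 3, 4 without day 3 library 1 and 1 without day 3 library 3, and in the last pair of fits the lone library is assumed to vary like the other groups. Day 6 against day 3 gave 0 calls, 59 with only both groups fitted, 73 with DESeq2, and 0 in each fit with 1 library left out. The difference from the endometrium gave 523 calls, 331 without the filter, 695 with the block, and 6 to 1042 with 1 library left out (95 and 142 without day 0 library 1 or 2, 1042 without 3, 6 without day 3 library 3). The difference from the oviduct gave 719, 821 with the block, and 13 to 1367 with 1 left out (279 and 427 without day 0 library 1 or 2, 1367 without 3, 13 without day 3 library 3). No called gene changed direction under any of these alternatives. Of the 28 list medians, 1 changed sign with the block and up to 3 in any 1 fit with a library left out. The causes were not tested. The numbers do not pair the libraries, which came from different gilts. Deviations of same-numbered libraries from their day correlated at 0.471 (library 1) and 0.34 (library 3), and only 2 numbers were shared. The deviations of the 2 libraries of day 3 mirror each other, so these correlations are not separate observations.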

Other observations

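DESeq2, unlike edgeR, called 870 genes, and 261 higher and 164 lower genes among them had a symbol, libraries that did not overlap and 50 counts or more in every library on the day with the higher level while edgeR did not call them. The genes below were chosen from these after their values were seen. HSD11B2, which inactivates cortisol, stood at 0.72, 0.748 and 0.477 CPM on day 0 and 54.5 and 54.4 CPM on day 3 (log2 fold change 6.37 ± 1.56, adjusted p = 0.0738 by edgeR and 0.00054 by DESeq2). CITED1, a coactivator of transcription, stood at 2.16, 24.4 and 10.4 CPM on day 0 and 300.1 and 918 CPM on day 3 (adjusted p = 0.0738 by edgeR), and the potassium channel gene KCNK3 at 2.48, 3.57 and 0.398 CPM on day 0 and 196 and 214 CPM on day 3 (adjusted p = 0.0738 by edgeR). In each of them both libraries of day 3 lay far above all of day 0. GRAMD1B, which moves cholesterol from the plasma membrane to the endoplasmic reticulum, stood at 23.9, 106 and 29.4 CPM on day 0 and 618 and 739 CPM on day 3 (adjusted p = 0.0738 by edgeR). ACLY, which supplies the acetyl-CoA for sterol and fatty acid synthesis, stood at 29.8, 44.6 and 73.8 CPM on day 0 and 385 and 549 CPM on day 3 (adjusted p = 0.137 by edgeR). ADRB1, a receptor for catecholamines, stood at 0.32, 1.41 and 0.239 CPM on day 0 and 11.2 and 20.9 CPM on day 3 (adjusted p = 0.114 by edgeR).

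Among the genes lower on day 3, OLR1, a scavenger receptor for oxidised low-density lipoprotein, stood at 76.8, 634 and 448 CPM on day 0 and 11.9 and 1.19 CPM on day 3 (log2 fold change -5.88 ± 1.61, adjusted p = 0.101 by edgeR). PDK4, which restrains pyruvate dehydrogenase, stood at 309, 500.5 and 2294 CPM on day 0 and 76.2 and 28.8 CPM on day 3 (adjusted p = 0.12 by edgeR). RETREG1, a receptor for autophagy of the endoplasmic reticulum, stood at 84.8, 578 and 1822 CPM on day 0 and 43.5 and 50.5 CPM on day 3 (adjusted p = 0.121 by edgeR). Day 0 library 3 was the highest for PDK4 and RETREG1 and library 2 for OLR1. SPP1, osteopontin, stood at 1178, 792 and 127 CPM on day 0 and 74 and 24.6 CPM on day 3, and C3, the central complement component, at 2147, 1027 and 327 CPM on day 0 and 252 and 72.5 CPM on day 3. In both, day 0 libraries 1 and 2 were above library 3, as in the immune markers, but library 3 was still above both libraries of day 3. The part of immune cells in these values was not tested. TNFRSF1B, a receptor for tumour necrosis factor, was even within day 0 at 378, 314 and 423 CPM on day 0 and 93.5 and 49.7 CPM on day 3 (log2 fold change -2.38 ± 0.55, adjusted p = 0.0724 by edgeR and 0.00091 by DESeq2).

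Over the genes tested, the correlation of log2(CPM + 1) between libraries of day 0 was 0.964 for 1 and 2, 0.912 for 1 and 3 and 0.933 for 2 and 3, and 0.973 between the libraries of day 3. Day 0 library 3 correlated with the day 3 libraries at 0.945 and 0.932. Genes are not independent replicates, so these values carry no test.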
